A study of Mus musculus with 30 samples.

Results

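Mouse hearts taken 7 days after a myocardial infarct were compared with hearts taken 7 days after a sham operation. The 5 MI (myocardial infarction) and 5 sham libraries labelled day 7 are 10 of the 30 RNA-sequencing libraries of a time series that also sampled days 2 and 4. Every gene that passed a filter on low counts was tested on these 10 libraries alone, which kept 14492 of the 43629 genes in the count tables. All mice were wild-type C57BL/6J. Both groups had isoflurane anaesthesia, an opened chest and removal of the pericardium, and only the MI group had a coronary artery tied, so the controls carry the wound of the operation too. The labels call the tissue heart without naming the region that was taken, and give neither age nor sex. They do not say that the libraries of a group came from separate animals, so every p-value is relative to a spread between libraries that may be technical.

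Tying a coronary artery stops the blood supply to part of the left ventricular wall, and the cardiomyocytes there die. Neutrophils and then monocytes enter, monocyte-derived macrophages clear the debris, and resident fibroblasts divide, turn into contractile myofibroblasts and lay down collagen that is later crosslinked into a scar. The surviving muscle remodels, which in rodents classically brings a return of fetal genes and less oxidation of fatty acids.

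The 10 libraries held 7841930 to 12119745 counts each. On the leading principal component of log2 expression, which held 66.35% of the variance, sham libraries lay between -59.8 and -29.8 and MI libraries between 22.2 and 66.7, with MI replicate 5 nearest to the sham group and sham replicate 2 nearest to the MI group. The 10 most abundant genes took 7.06 ± 0.37% of the counts in MI and 10.8 ± 0.537% in sham (SD, n = 5; 2-sided exact permutation test p = 0.00794, 0.0278 after Benjamini-Hochberg adjustment over 7 library measures). In bulk tissue, fewer cells of a type and less RNA per cell cannot be told apart, and this holds for each result below.

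Some libraries held transcripts of tissues other than heart. Values here and below are CPM, the counts of a gene scaled to a common library total after TMM normalization. Scgb1a1, the secretory protein of airway club cells, was 241, 60.8, 273, 0 and 0 CPM in sham replicates 1 to 5 and 0, 705, 0, 6.61 and 19.3 CPM in MI replicates 1 to 5. Sftpc, the surfactant protein of alveolar type 2 cells, was 9.303, 342, 10.5, 0.137 and 0.141 CPM in sham replicates 1 to 5 and 0, 815, 20.6, 3.26 and 3.35 CPM in MI replicates 1 to 5. Sham replicates 1 and 3 thus held mainly airway transcripts, sham replicate 2 mainly alveolar ones and MI replicate 2 both, while sham replicates 4 and 5 and MI replicate 1 were near 0. The summed level of the 20 lung genes listed, some of which the heart also expresses, was 300.4 to 1083 CPM in sham and 164.5 to 2427 CPM in MI, and all 20 had at least 1 count. MI replicate 4 held fast skeletal muscle transcripts: the fast myosins Myh1 and Myh2 were at 266 and 403 CPM there and at most 0.410 CPM in the other libraries. Ucp1, the uncoupling protein of brown fat, was at 28.8 to 34.0 CPM in sham replicates 1 to 3 and at most 7.08 CPM elsewhere. The fitted Ucp1 difference (log2 fold change -2.85, SE 1.05, edgeR adjusted p = 0.0451) became 0.32 (edgeR adjusted p = 0.808) in the 5 libraries named below, and it lost its call on leaving out any one of sham replicates 1, 2 and 3 and MI replicates 2, 3 and 4. Without MI replicate 1 it was -3.46. Adipoq, the hormone adiponectin of fat cells, was 29.0 to 52.7 CPM in sham replicates 1 to 3, 53.1 CPM in MI replicate 4 and 8.604 to 17.7 CPM in the other 6 libraries. The fat cell genes Plin1, Cidec and Cfd were likewise higher in these 4 libraries than in the other 6, at 35.2, 45.4 and 310 CPM in MI replicate 4. Of 13 adipocyte genes tested 0 rose and 4 fell (30.8%, against 26.6% of all genes tested), and in the 5-library set 4 of 12 rose and 2 fell. Those that fell in the 10 libraries were Ucp1, Dgat2, Cidea and Lipe. Dgat2 was 482 to 567 CPM in all 5 sham libraries, replicates 4 and 5 included, and 154 to 238 CPM in MI. Of 14 lung genes tested 1 was called higher, the aspartic protease Napsa (1.83), and 1 lower, Hopx (-1.16), which the heart also expresses. In the 5-library set 2 of 8 rose and 1 fell (median log2 fold change 2.18). Napsa was 2.67 without sham replicate 2 and lost its call on leaving out any one of sham replicates 1, 3, 4 and 5 and MI replicates 2 and 3. Counts below are therefore also given for the 5 libraries with few or none of these transcripts (sham replicates 4 and 5 against MI replicates 1, 3 and 5), called the 5-library set. These are among the 10 and are no independent replication, and fewer libraries also make fewer calls. Lung transcripts were uneven within the set. Sftpc was 20.6 CPM in MI replicate 3 and Scgb1a1 19.3 CPM in MI replicate 5, against at most 0.141 and 0 CPM in sham replicates 4 and 5.

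**Figure D1:**
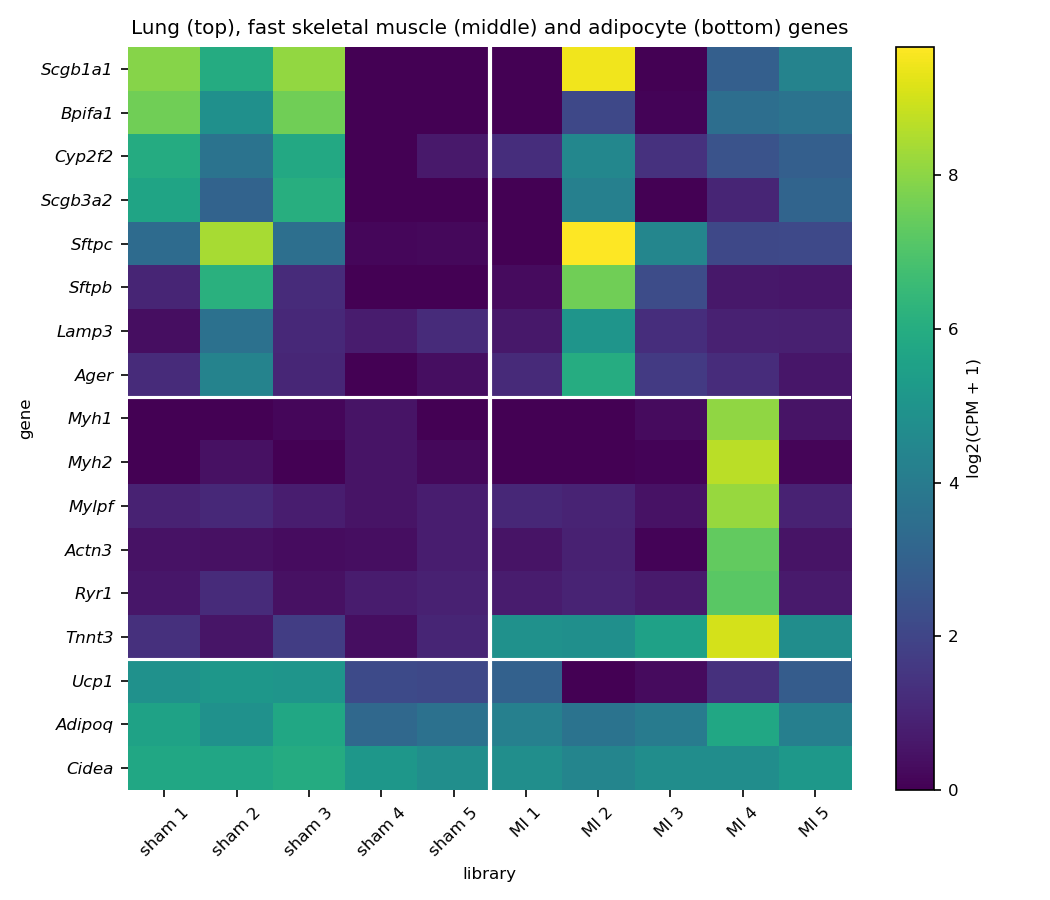
Heat map of lung (top), fast skeletal muscle (middle) and adipocyte (bottom) genes in each day 7 library, as log2(CPM + 1). Sham replicates 1 to 3 and MI replicate 2 hold lung transcripts, and the fast myosins Myh1 and Myh2 are high in MI replicate 4 and near 0 elsewhere. Tnnt3 is also raised in the other 4 MI libraries. Ckm and Eno3 of the fast skeletal muscle list, which the heart also expresses, are not drawn and were higher in every sham library than in any MI library.

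Of the 14492 genes tested, 4119 (28.4%) were higher in MI and 3857 (26.6%) lower at an edgeR adjusted p under 0.05. The larger changes were mostly increases: 1765 of the genes called higher and 675 of those called lower differed by at least 2-fold. In the 5-library set 2759 of 14871 genes (18.6%) were higher and 2208 (14.8%) lower. Of the 7971 called genes that were also tested there, 7970 kept their direction and 4728 were called in both, and 239 of the 4967 calls in the 5-library set were not called in the 10. Named genes that were called in the 10 libraries and not in the 5 were Bmp6, Bmp7, Canx, Ccl11, Cd59a, Chil3, Ctla4, Dcn, Dkk2, Dnajb9, Gjc1, Itgb6, Lck, Ms4a1, Myh7, Myl7, Slc17a7, Tbx20, Tnni2, Ucp1, Vwf and Wif1. Leaving out only the 4 lung-transcript libraries (sham replicates 1 to 3 and MI replicate 2) also cost Axin2, Car9, Il1b, S100a8 and Tnnt3 their calls. The median log2 fold change (MI over sham) over all genes was 0.01, and scaling by median ratios moved it by -0.005, and no gene named here changed direction under that scaling.

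**Figure D2:**
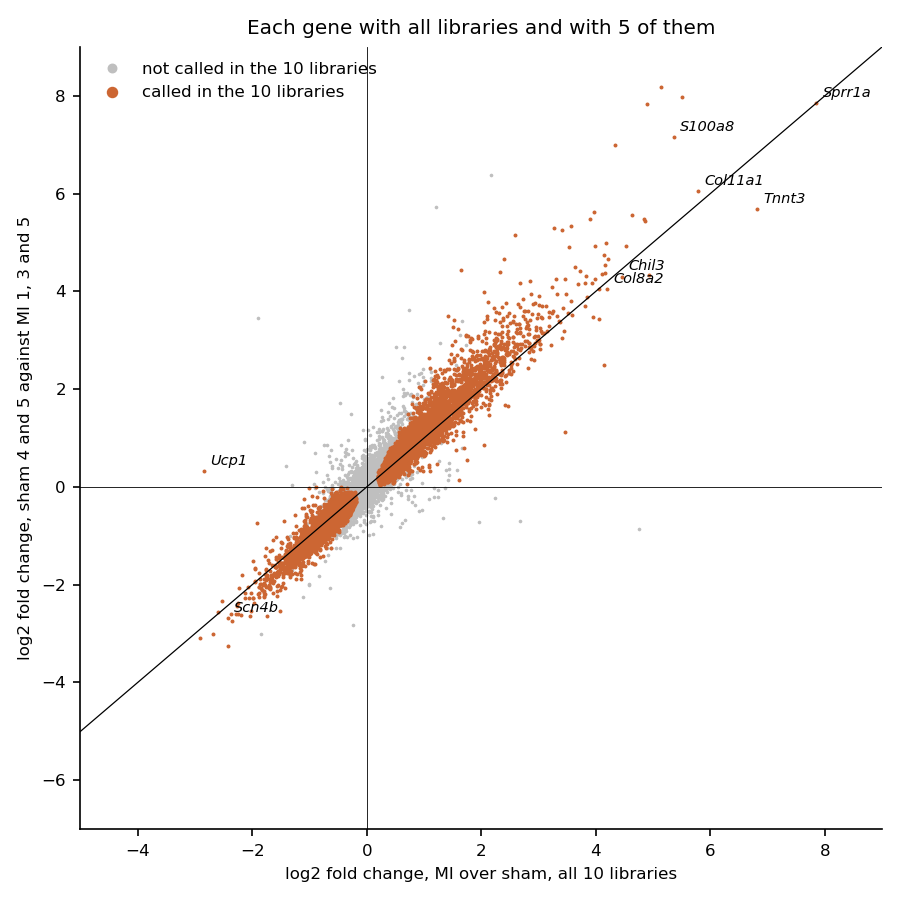
Log2 fold change of each gene in all 10 libraries (x axis) against that in sham replicates 4 and 5 and MI replicates 1, 3 and 5 (y axis), with the line of equality. Of the 7971 called genes shown in colour, 1 has the opposite sign in the 5 libraries, Ucp1.

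The largest increase among genes of at least 10 CPM was that of Sprr1a, a small proline-rich protein of epithelial barriers that stressed cardiomyocytes also make (ENSMUSG00000050359, chromosome 3, 92483952 to 92485895 in GRCm38). Its level was 0.0979, 0.576, 0.118, 0.4097 and 0.141 CPM in sham replicates 1 to 5 and 49.97, 52.1, 113, 62.3 and 41.7 CPM in MI replicates 1 to 5. Every MI library was far above every sham library (232-fold, log2 fold change 7.85, SE 0.44, edgeR adjusted p = 2.77e-07); the sham level rests on 11 counts in all, so the fold is imprecise. Tnnt3, the fast skeletal troponin T (ENSMUSG00000061723, chromosome 7, 142498836 to 142516009), was 1.57, 0.461, 2.36, 0.273 and 0.985 CPM in sham replicates 1 to 5 and 28.96, 27.1, 44.8, 535 and 25.8 CPM in MI replicates 1 to 5. The very high MI replicate 4 is the library with skeletal muscle transcripts, but the other 4 MI libraries also stood above all sham libraries, and without replicate 4 the log2 fold change was 4.76 (edgeR adjusted p = 3.88e-06) in place of 6.82. With limma voom and sample weights on all 10 libraries Tnnt3 was 5.95 (adjusted p = 0.0645). Without the 4 lung-transcript libraries, but with MI replicate 4, it was 7.93 and not called (edgeR adjusted p = 0.0993). In the 4 MI libraries other than replicate 4 the fast myosins Myh1 and Myh2 were at most 0.406 CPM. Pvalb (2.23), Casq1 (0.72) and Atp2a1 (4.75) of the same list were not called, while Tnni2, the fast troponin I, was (3.46). Tnni2 was 1.17 without MI replicate 4, 1.13 in the 5-library set (edgeR adjusted p = 0.0847), and not called on leaving out any one of the 5 sham libraries.

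Other leading increases were in the fibrillar collagen Col11a1 (log2 fold change 5.79), the calprotectin subunit S100a8 (5.36), the secreted C1q-related protein C1qtnf3 (4.86), the hyaluronan-degrading Cemip (4.63), the short-chain collagen Col8a2 (4.2), the latent TGF-beta binding protein family member Ltbp2 (4.17) and osteopontin, Spp1 (4.14). Without sham replicate 2, Cemip was 5.34 and Spp1 4.75, and without MI replicate 1, S100a8 was 4.5, each past the threshold. Decreases were ranked only where the groups were fully apart, the level reached 10 CPM and the 5-library set also gave a call. Ucp1 (-2.85) and the potassium channel subunit Kcnv2 had larger fitted falls but lay outside that ranking. Within it, Scn4b, a sodium channel beta subunit (ENSMUSG00000046480, chromosome 9, 45138395 to 45154152), fell most (log2 fold change -2.43, SE 0.33, edgeR adjusted p = 8.33e-05). It was 68.7, 95.5, 59.9, 94.9 and 77.6 CPM in sham replicates 1 to 5 and 11.8, 13.7, 4.94, 18.8 and 24.6 CPM in MI replicates 1 to 5, without overlap. Next came Tmem82 (-2.37), the carboxylesterase Ces1d (-2.35), Lingo3 (-2.28), the myosin light chain kinase family member Mylk4 (-2.06), the muscle protein Ky (-2.03), the galactose sulfotransferase Gal3st3 (-2.02), whirlin, Whrn (-1.99), the mitochondrial uncoupling protein Ucp3 (-1.99) and the acyl-CoA thioesterase Acot1 (-1.98).

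The promoters of 3 genes are printed because they belong to the gene with the largest increase and to the most changed and a highly abundant fibrillar collagen. RefSeq (GRCm38.p6) held all 3 genes, and each window is the 250 bases before the annotated start. Capitals mark the CCAAT box, the TATAAA box and the letters TGANTCA, the usual AP-1 site, each searched on both strands. Of 32851 RefSeq promoter windows of this length, 33.9% held CCAAT, 12.4% TATAAA and 6.75% TGANTCA.
Sprr1a, chr3:92485882-92486131, minus strand: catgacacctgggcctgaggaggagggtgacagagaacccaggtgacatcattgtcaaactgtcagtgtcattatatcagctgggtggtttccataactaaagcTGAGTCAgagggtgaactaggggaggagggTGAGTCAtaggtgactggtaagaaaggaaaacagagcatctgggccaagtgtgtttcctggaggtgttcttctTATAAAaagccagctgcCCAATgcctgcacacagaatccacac
Col11a1, chr3:114030290-114030539, plus strand: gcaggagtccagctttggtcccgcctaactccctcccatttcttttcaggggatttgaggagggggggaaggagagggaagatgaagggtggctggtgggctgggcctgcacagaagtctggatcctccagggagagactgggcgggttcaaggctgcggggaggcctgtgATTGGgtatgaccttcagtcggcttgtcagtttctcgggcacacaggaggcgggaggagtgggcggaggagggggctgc
Col3a1, chr1:45311288-45311537, plus strand: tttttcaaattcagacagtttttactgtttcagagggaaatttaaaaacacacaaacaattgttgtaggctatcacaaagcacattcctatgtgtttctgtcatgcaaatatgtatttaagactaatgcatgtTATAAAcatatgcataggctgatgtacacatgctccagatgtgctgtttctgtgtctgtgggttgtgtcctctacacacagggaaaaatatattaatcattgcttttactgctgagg
The Sprr1a window held 2 matches to TGANTCA, 1 to TATAAA and 1 to CCAAT; that of Col11a1 held 1 to CCAAT and that of Col3a1 1 to TATAAA. A match describes the letters and shows no binding.

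**Figure D3:**
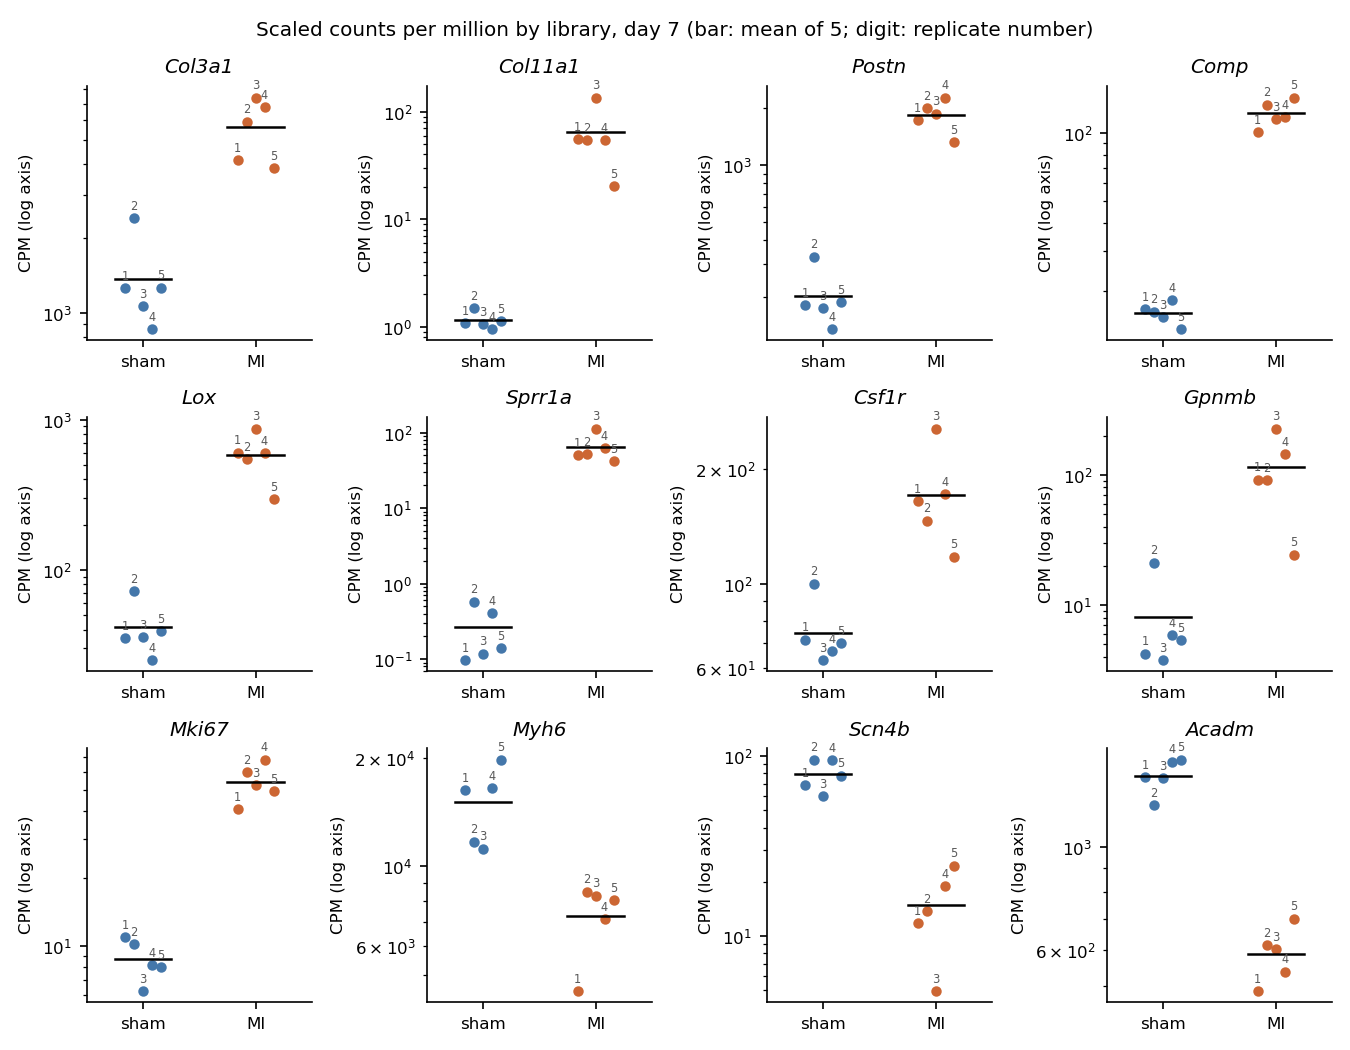
Scaled CPM (log axis) of 12 genes in each sham and MI library at day 7, with bars at the mean of 5 and the replicate number beside each point. The genes were picked for display, and Sprr1a, Col11a1 and Scn4b come from a ranking that required groups without overlap. Sham replicate 2 is the highest sham library for Col3a1, Col11a1, Postn, Lox, Sprr1a, Csf1r, Gpnmb and Scn4b.

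Fibrillar collagens, which bear the tension of a scar, rose almost as a class. Of 11 tested, 10 rose and 0 fell, with a median log2 fold change of 2.56, and in the 5-library set 9 of 11 rose with a median of 2.65. Col3a1, the thin-fibril collagen of young scars (ENSMUSG00000026043, chromosome 1, 45311538 to 45349706), was 1252, 2404, 1063, 859 and 1259.8 CPM in sham replicates 1 to 5 and 4135, 5906, 7402, 6749 and 3846 CPM in MI replicates 1 to 5. All MI libraries were above all sham libraries, of which replicate 2 was the highest (4.1-fold, log2 fold change 2.04, SE 0.28, edgeR adjusted p = 5.14e-05). Col1a1 and Col1a2, the chains of type I collagen, rose 6.56-fold and 5.89-fold (log2 fold change 2.71 and 2.56). The largest change was in Col11a1 (ENSMUSG00000027966, chromosome 3, 114030540 to 114220718), a chain that nucleates fibrils and is best known from cartilage: it was 1.08, 1.498, 1.06, 0.956 and 1.13 CPM in sham replicates 1 to 5 and 55.6, 54.4, 135, 54.6 and 20.4 CPM in MI replicates 1 to 5. MI replicate 3 was highest and replicate 5 lowest, and all 5 lay above 20 CPM against at most 1.5 CPM in sham. Among the low-abundance members, the cartilage collagen Col2a1 rose by 2.82 (log2), from a sham level that rests on 26 counts. Col11a2 was the member not called (log2 fold change -0.3, SE 0.24, edgeR adjusted p = 0.309).

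Among network and basement membrane collagens 13 of 16 rose and 0 fell (median 1.5, against 12 higher, 0 lower and 1.42 in the 5-library set). The short-chain pair Col8a1 and Col8a2, found in vessel walls and in Descemet's membrane of the eye, led them. Col8a2 (ENSMUSG00000056174, chromosome 4, 126286793 to 126314330) was 4.11, 4.26, 2.72, 3.28 and 3.24 CPM in sham replicates 1 to 5 and 40.3, 75.3, 66.3, 87.7 and 58.2 CPM in MI replicates 1 to 5, an 18.4-fold rise without overlap. Col8a1 rose from 35.2 ± 4.63 CPM in sham to 507 ± 104 CPM in MI (SD, n = 5). The basement membrane chains Col4a1 (1.39) and Col4a2 (1.29) and the microfibrillar Col6a3 (1.91) rose less. Of 7 tested fibril-associated collagens 5 rose and 0 fell (median 2.02, against 5 of 9 higher, 0 lower and 2.12 in the 5-library set), led by Col12a1 (4.11), Col9a2 (3.94) and Col16a1 (2.67).

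Enzymes that fold, trim and crosslink collagen rose with their substrates: 21 of 25 rose and 0 fell (median 1.13, against 18 higher, 0 lower and 1.07 in the 5-library set). Lox, the lysyl oxidase that starts crosslinking, was 35.1, 71.7, 35.5, 25.1 and 38.99 CPM in sham replicates 1 to 5 and 600.5, 544, 871, 598 and 296 CPM in MI replicates 1 to 5. Its groups did not overlap, and its 14.1-fold rise (log2 fold change 3.82, SE 0.32, edgeR adjusted p = 3.85e-06) exceeded those of Loxl3 (3.16), Loxl2 (2.09) and Loxl1 (1.87), a comparison of changes and not of levels. The prolyl hydroxylase subunit P4ha3 rose by 3.35, whereas P4ha2 (-0.09) and the lysyl hydroxylase Plod1 (0.12) were not called. The N-proteinase Adamts2 (2.0) and the C-proteinase Bmp1 (1.64), which trim the ends of procollagen, both rose.

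Matricellular proteins, which sit in the matrix and signal to cells without bearing load, included some of the largest changes. Of 22 tested 17 rose and 1 fell (median 2.5, against 15 higher, 1 lower and 2.46 in the 5-library set). Postn, the fibroblast protein periostin (ENSMUSG00000027750, chromosome 3, 54361109 to 54391037), was 182, 328, 176, 137 and 189 CPM in sham replicates 1 to 5 and 1727, 1989, 1857, 2263 and 1320.0 CPM in MI replicates 1 to 5. Sham replicate 2 was the highest sham library and still far below the lowest MI library (9.04-fold, log2 fold change 3.18, SE 0.23, edgeR adjusted p = 7.89e-07). Comp, the cartilage oligomeric matrix protein (ENSMUSG00000031849, chromosome 8, 70373558 to 70382066), was 16.6, 16.2, 15.4, 18.3 and 13.7 CPM in sham replicates 1 to 5 and 100.1, 133, 115, 117 and 143 CPM in MI replicates 1 to 5, tightly grouped on both sides (7.57-fold, log2 fold change 2.92, SE 0.12, edgeR adjusted p = 6.36e-09). Spp1 (log2 fold change 4.14), Cthrc1 (3.7), thrombospondin 1, Thbs1 (3.59), and thrombospondin 4, Thbs4 (3.42), were the 4 largest, and tenascin C, Tnc, rose by 3.24, or 3.98 without sham replicate 2. Without the same library Spp1 rose by 4.75. Cilp2 was the member that fell (log2 fold change -1.59, SE 0.23, edgeR adjusted p = 6.99e-05), although its relative Cilp rose by 2.98.

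Of 12 tested small leucine-rich proteoglycans, which space collagen fibrils, 9 rose and 0 fell (median 0.64, against 4 of 13 higher, 0 lower and 0.94 in the 5-library set). The 4 with the largest changes were Aspn (2.37), Fmod (2.33), Bgn (2.1) and Lum (1.3); decorin, Dcn, was 0.42 in the 10 libraries (edgeR adjusted p = 0.0149) and 0.45 in the 5 (edgeR adjusted p = 0.147). Elastic fibre and microfibril genes rose in 13 of 17 and fell in 0 (median 1.97, against 12 higher, 0 lower and 1.96 in the 5-library set), with elastin, Eln, at 2.69 and fibrillin 1, Fbn1, at 2.52, while Fbln1 (0.02) was not called. Matrix proteases and their inhibitors rose in 16 of 22 and fell in 1 (median 1.12, against 15 of 23 higher, 1 lower and 1.32 in the 5-library set). The inhibitor Timp1 (2.83) rose together with the membrane collagenase Mmp14 (2.35) and the gelatinase Mmp2 (1.53), and Mmp15 fell by 1.05 on the log2 scale. Among large proteoglycans and enzymes of hyaluronan, 6 of 11 rose and 0 fell (median 0.86, against 4 higher, 0 lower and 1.14 in the 5-library set), including versican, Vcan (2.04), and the hyaluronan synthase Has2 (1.79).

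Markers of activated fibroblasts and myofibroblasts rose in 18 of 20 and fell in 1 (median 1.71, against 18 higher, 1 lower and 1.95 in the 5-library set). Fn1, fibronectin, rose 8.13-fold, Cthrc1 12.97-fold and the growth factor pleiotrophin, Ptn, 11.4-fold. Acta2, the smooth muscle actin of contractile myofibroblasts, rose far less: it was 216, 210.2, 203, 227 and 120.2 CPM in sham replicates 1 to 5 and 383, 327, 411, 395 and 261 CPM in MI replicates 1 to 5. The groups did not overlap (1.82-fold, log2 fold change 0.86, SE 0.17, edgeR adjusted p = 0.000807), and sham replicate 5 was the lowest library. Lrrc15, listed because it marks some myofibroblasts in other tissues, fell 2.42-fold from 52.1 ± 7.12 CPM in sham to 21.5 ± 4.57 CPM in MI. A list of late scar and cartilage-type genes rose in 14 of 17 and fell in 2, Cilp2 and Cytl1 (-1.38) (median 2.46, against 13 higher, 2 lower and 2.61 in the 5-library set). It holds Comp, the Wnt antagonists Sfrp2 (3.03) and Frzb (2.87), matrilin 4, Matn4 (3.45), matrilin 3, Matn3, whose 5 sham libraries held 3 counts together against 93 in MI (log2 fold change 4.34, and 5.32 without sham replicate 3), and aggrecan, Acan (3.97, or 4.96 without sham replicate 1). The cartilage transcription factor Sox9 rose by 1.91. Resting fibroblast genes were mixed: 9 of 16 rose, among them Tcf21 (1.22), and 2 fell, Scara5 (-0.99) and gelsolin, Gsn (-0.94) (median 0.61, against 9 higher, 2 lower and 0.71 in the 5-library set).

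Among genes of the TGF-beta pathway, the main inducer of myofibroblasts, 13 of 18 rose and 2 fell (median 1.09, against 12 higher, 1 lower and 1.06 in the 5-library set). The ligands Tgfb3 (1.84), Tgfb2 (1.5) and Tgfb1 (0.68) rose, as did the receptor Tgfbr1 (1.25). Itgb6 (-1.5), an integrin chain that activates latent TGF-beta, and the co-receptor Tgfbr3 (-0.47) fell. The signal transducers Smad2 (0.13) and Smad3 (-0.04) were not called. Of 20 BMP and activin genes 10 rose and 2 fell (median 0.82, against 10 higher, 0 lower and 0.89 in the 5-library set): the activin A subunit Inhba (2.52) and Fstl1 (2.4) led the rises, and Bmp7 (-1.35) and Bmp6 (-0.25) fell. Of 18 genes of the Wnt list 5 rose (27.8%) and 4 fell (22.2%) (median 0.31, against 5 higher, 3 lower and 0.3 in the 5-library set), close to the 28.4% and 26.6% over all genes tested. The secreted antagonists Sfrp2 (3.03), Frzb (2.87), Sfrp1 (2.76) and Dkk2 (1.24) rose with the ligand Wnt4 (1.55), and the antagonists Sfrp5 (-1.77) and Wif1 (-0.92), the ligand Wnt5a (-0.6) and Axin2 (-0.81), a target and inhibitor of canonical Wnt signalling, fell. Some of these calls were lost with 1 library left out: Itgb6 was lost on leaving out any one of MI replicate 1 and sham replicates 1, 2, 3 and 5, Bmp6 on leaving out any one of MI replicates 1 and 4 and sham replicates 1, 2, 4 and 5, Dkk2 on leaving out any one of MI replicate 4 and sham replicates 1 and 5, and Wif1 without sham replicate 1. Integrin subunits rose in 15 of 23 and fell in 1 (median 1.15, against 12 higher, 0 lower and 1.14 in the 5-library set), led by Itga11 (2.56), a collagen receptor chain of fibroblasts.

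**Figure D4:**
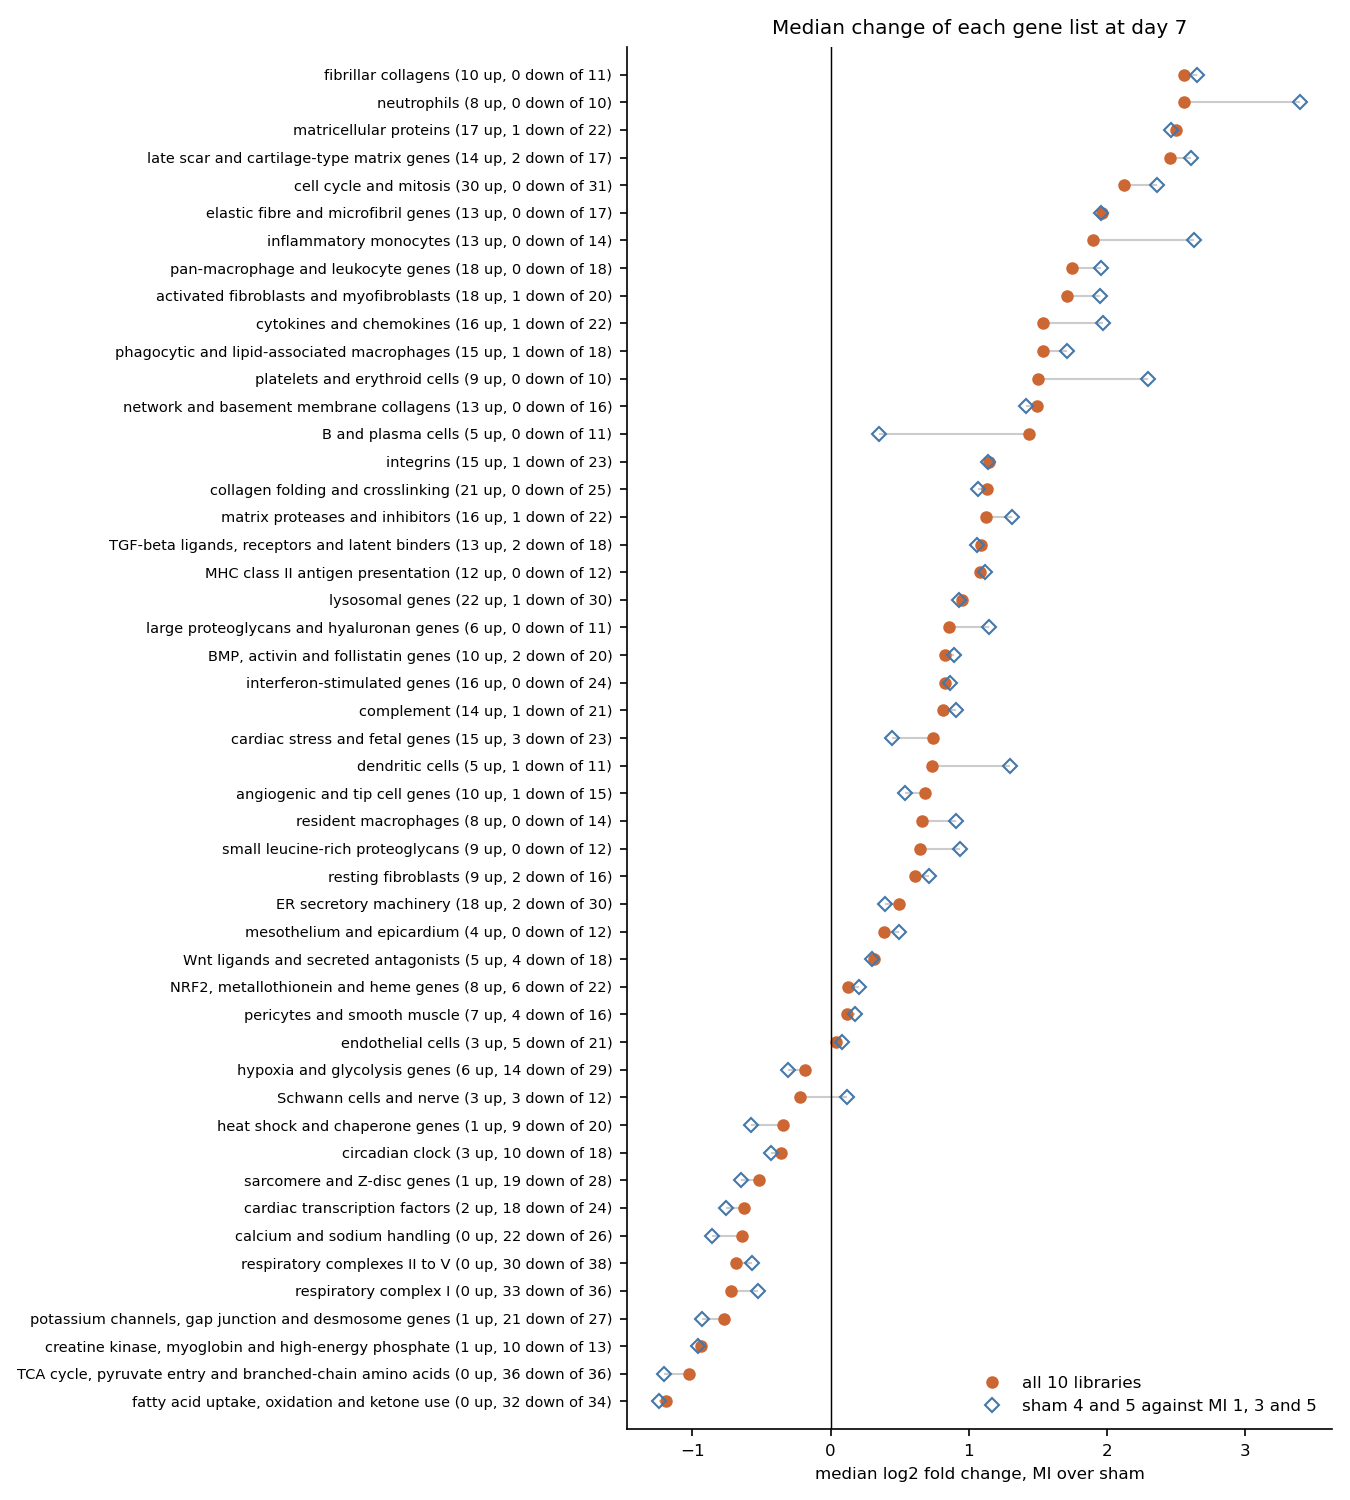
Median log2 fold change (MI over sham) of each gene list with at least 10 tested genes, in all 10 libraries (filled) and in sham replicates 4 and 5 against MI replicates 1, 3 and 5 (open); the labels give how many genes were called higher and lower. Matrix, macrophage and cell cycle lists lie on the right and mitochondrial and ion channel lists on the left in both sets.

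All 18 pan-macrophage and leukocyte genes rose (median 1.75, against 18 higher, 0 lower and 1.95 in the 5-library set). Csf1r, the receptor for the growth factor that macrophages need, was 71.3, 100.1, 63.1, 66.5 and 69.96 CPM in sham replicates 1 to 5 and 165, 147, 256, 172 and 118 CPM in MI replicates 1 to 5. The groups did not overlap (2.31-fold, log2 fold change 1.21, SE 0.19, edgeR adjusted p = 0.000145). Cathepsin S, Ctss, rose 6.12-fold and Cd68 4.74-fold. Genes of phagocytic, lipid-laden macrophages rose in 15 of 18 and fell in 1 (median 1.54, against 15 higher, 1 lower and 1.71 in the 5-library set). Gpnmb, a glycoprotein of such cells (ENSMUSG00000029816, chromosome 6, 49036546 to 49070929), was 4.21, 21.1, 3.78, 5.87 and 5.35 CPM in sham replicates 1 to 5 and 91.7, 90.7, 227, 144 and 24.3 CPM in MI replicates 1 to 5. Sham replicate 2 nearly reached MI replicate 5, and the fold change rose from 3.84 to 4.61 (log2) without that sham library. The lipid sensor Trem2 rose by 2.85 and galectin 3, Lgals3, by 2.73. The gene that fell was lipoprotein lipase, Lpl (-0.91), which cardiomyocytes also make. Resident macrophage genes rose in 8 of 14 and fell in 0 (median 0.66, against 8 higher, 0 lower and 0.91 in the 5-library set), including the mannose receptor Mrc1 (1.22) and Igf1 (1.4), whereas Lyve1 (0.23, edgeR adjusted p = 0.267), Folr2 (0.21) and Timd4 (-0.46, or -0.68 and called without MI replicate 4) were not called.

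Inflammatory monocyte genes rose in 13 of 14 and fell in 0 (median 1.9, against 10 of 13 higher, 0 lower and 2.63 in the 5-library set). They include Ccr2, the receptor for the monocyte chemokine Ccl2, at 1.85, and Arg1, arginase 1, at 1.94. Fn1, Thbs1 and Vcan of this list are also counted in the fibroblast or matrix lists above. Chil3, a chitinase-like protein of alternatively activated and alveolar macrophages, was 0.881, 8.07, 1.06, 0.137 and 1.41 CPM in sham replicates 1 to 5 and 9.47, 209.6, 34.9, 4.66 and 1.63 CPM in MI replicates 1 to 5. MI replicate 2, a library with alveolar transcripts, was highest and sham replicate 2, the other such library, exceeded 2 MI libraries; without MI replicate 2 the log2 fold change was 2.44 (edgeR adjusted p = 0.0908), and without sham replicate 2 it was 5.88. Its call was also lost on leaving out any one of MI replicate 3 and sham replicates 1, 3, 4 and 5, and in the 5-library set (4.3, edgeR adjusted p = 0.0622). Of 19 neutrophil genes 10 were abundant enough to test, and 8 of these rose and 0 fell (median 2.56, against 10 of 15 higher, 0 lower and 3.4 in the 5-library set). S100a8 (ENSMUSG00000056054, chromosome 3, 90668978 to 90670035) was 0.4896, 1.27, 0.946, 0.273 and 0.282 CPM in sham replicates 1 to 5 and 79.6, 9.79, 44.97, 4.12 and 2.13 CPM in MI replicates 1 to 5. It was above every sham library in all 5 MI libraries but varied widely among them, with replicate 1 highest and replicate 5 lowest (log2 fold change 5.36, SE 1.29, edgeR adjusted p = 0.00709). Without the 4 lung-transcript libraries S100a8 was 6.785 and not called (edgeR adjusted p = 0.142).

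Of 33 cytokines and chemokines 22 were tested, and 16 rose and 1 fell (median 1.54, against 17 of 25 higher, 0 lower and 1.97 in the 5-library set). Il6 rose by 3.9 from a low level (15 counts over the sham libraries), Il1b by 3.53 (2.83 without MI replicate 1 and 4.19 without sham replicate 2), Lif by 2.1 and Ccl8 by 2.07. Without the 4 lung-transcript libraries Il1b was 4.55 and not called (edgeR adjusted p = 0.0978). Ccl11, the eosinophil chemokine eotaxin, fell (-0.76), a call lost on leaving out any one of MI replicates 2, 3 and 4 and sham replicates 2, 3 and 4, and Tnf (0.1) was not called. Interferon-stimulated genes rose in 16 of 24 and fell in 0 (median 0.82, against 12 higher, 0 lower and 0.87 in the 5-library set), with Cxcl10 at 2.22 and Mx1 at 1.99. All 12 tested genes of the MHC class II antigen presentation list rose (median 1.08, against 10 higher, 0 lower and 1.12 in the 5-library set), H2-Aa by 0.79. This list also holds Cd80 and Ctss, and Ctss is counted in the pan-macrophage and lysosomal lists too. Complement genes rose in 14 of 21 and fell in 1 (median 0.81, against 14 higher, 0 lower and 0.91 in the 5-library set), led by Cfi (2.18), C3ar1 (1.76) and C5ar1 (1.68), the last 2 being receptors for the C3a and C5a fragments. The membrane inhibitor Cd59a fell (-0.55), and C3 itself (0.12) was not called.

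Lymphocyte transcripts were scarce. Only 4 of 22 T and NK cell genes could be tested, of which the kinase Lck rose (1.53) and the checkpoint receptor Ctla4 fell (-1.41). These shares of 25% and 25% were close to the 28.4% and 26.6% over all genes tested. In the 5-library set 2 of 8 rose and 0 fell, and 1 to 4 rose when single libraries were left out. Dendritic cell genes rose in 5 of 11 and fell in 1 (median 0.73, against 3 of 12 higher, 0 lower and 1.3 in the 5-library set), with the transcription factor Irf8 at 1.53. Of 11 tested B and plasma cell genes 5 rose and 0 fell (median 1.43, against 1 higher, 0 lower and 0.35 in the 5-library set), and the count that rose was 2 without MI replicate 4, 7 without MI replicate 5 and 3 on leaving out any one of sham replicates 1, 2 and 3 or with lung transcripts as a term. Ms4a1, which encodes CD20, was 2.84, 1.38, 1.89, 0.137 and 2.82 CPM in sham replicates 1 to 5 and 2.504, 5.28, 3.4, 16.6 and 1.83 CPM in MI replicates 1 to 5, with the highest value in MI replicate 4; without that library its log2 fold change was 0.83 (edgeR adjusted p = 0.174) in place of 1.7, and its call was lost on leaving out any one library except MI replicates 1 and 5. Blk, a B cell kinase, was the gene called in both sets (1.24 and 1.28).

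Cell cycle genes rose in 30 of 31 and fell in 0 (median 2.12, against 28 higher, 0 lower and 2.36 in the 5-library set). Mki67, the proliferation antigen Ki-67 (ENSMUSG00000031004, chromosome 7, 135689784 to 135716361), was 10.9, 10.1, 6.27, 8.19 and 8.02 CPM in sham replicates 1 to 5 and 40.8, 59.99, 52.3, 68.2 and 49.2 CPM in MI replicates 1 to 5. All MI libraries were well above all sham libraries (6.19-fold, log2 fold change 2.63, SE 0.17, edgeR adjusted p = 3.67e-07). The mitotic cyclin Ccnb1 (2.8), the kinase Cdk1 (2.68) and the kinetochore motor Cenpe (2.68) rose as well, and Cenpf (-0.07) was the gene not called. Lysosomal genes rose in 22 of 30 and fell in 1, the acid glucosidase Gaa (-0.48) (median 0.95, against 18 higher, 1 lower and 0.93 in the 5-library set). Cathepsin S, the proton pump subunit Atp6v0d2 (2.38, or 3.42 without sham replicate 2) and cathepsin K, Ctsk (2.09), rose most. In the secretory machinery of the endoplasmic reticulum 18 of 30 rose and 2 fell (median 0.5, against 11 higher, 0 lower and 0.39 in the 5-library set), with the retrieval receptor Kdelr3 (1.96) and the transcription factor Creb3l1 (1.1) among those that rose, Dnajb9 (-0.45) and calnexin, Canx (-0.33), those that fell, and the chaperone Hspa5 (-0.12) not called.

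Genes of the stressed and fetal heart rose in 15 of 23 and fell in 3 (median 0.74, against 9 higher, 2 lower and 0.45 in the 5-library set). Nppa, atrial natriuretic peptide, was 1359, 1370.4, 1582, 1651 and 1209 CPM in sham replicates 1 to 5 and 2996, 2954, 2437, 2409 and 3468 CPM in MI replicates 1 to 5. It rose 1.99-fold without overlap (log2 fold change 0.99, SE 0.14, edgeR adjusted p = 4.61e-05), and B-type natriuretic peptide, Nppb, rose 2.61-fold. Nmrk2, a muscle kinase of NAD synthesis, rose 10.8-fold, the stress cytokine Gdf15 4.41-fold and the titin-linked Ankrd1 2.33-fold. The 3 that fell were the pacemaker channel Hcn4 (-1.15), the atrial light chain Myl7 (-0.79) and the T-type calcium channel Cacna1h (-0.71). Myh7, the slow myosin heavy chain of the fetal mouse ventricle, was 269, 208, 156, 207 and 295 CPM in sham replicates 1 to 5 and 377, 478, 855, 683 and 406 CPM in MI replicates 1 to 5. It rose 2.47-fold without overlap (edgeR adjusted p = 0.000464), while in the 5-library set its log2 fold change was 1.1 (edgeR adjusted p = 0.0517). Acta1, skeletal alpha-actin, was 511, 377, 540.4, 637 and 480.0 CPM in sham replicates 1 to 5 and 356, 609, 504, 1931 and 1259 CPM in MI replicates 1 to 5, with overlapping groups and the highest value in MI replicate 4 (log2 fold change 0.87, SE 0.41, edgeR adjusted p = 0.0922, and 1.08 with edgeR adjusted p = 0.0263 without MI replicate 1).

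Transcripts of the working cardiomyocyte were lower. The summed level of 9 ventricular muscle genes was 32222 to 39104 CPM in MI and 53026 to 66724 CPM in sham, so that the groups did not overlap. How much of the fall of single genes goes with this lower share of heart muscle transcripts was not tested. Sarcomere genes fell in 19 of 28 and rose in 1 (median -0.52, against 1 higher, 12 lower and -0.65 in the 5-library set). Myh6, the adult ventricular myosin (ENSMUSG00000040752, chromosome 14, 54941921 to 54966927), was 16297, 11707, 11191, 16463 and 19784 CPM in sham replicates 1 to 5 and 4509, 8502, 8288, 7119 and 8067 CPM in MI replicates 1 to 5. MI replicate 1 was lowest, and no MI library reached the sham range (2.07-fold lower, log2 fold change -1.05, SE 0.2, edgeR adjusted p = 0.000693). The troponin Tnni3 (-1.14) and the light chain Myl2 (-1.08) fell, Synpo2l rose by 1.05, and titin, Ttn (-0.3), was not called.

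Calcium and sodium handling genes fell in 22 of 26 and rose in 0 (median -0.64, against 0 higher, 17 lower and -0.86 in the 5-library set). Atp2a2, the calcium pump of the sarcoplasmic reticulum (ENSMUSG00000029467, chromosome 5, 122453513 to 122502225), was 20257, 18661, 16080.1, 22224 and 24362 CPM in sham replicates 1 to 5 and 6209, 8723, 5684, 6986 and 9221 CPM in MI replicates 1 to 5. It was 2.76-fold lower in MI, without overlap (log2 fold change -1.46, SE 0.17, edgeR adjusted p = 1.56e-05). The calcium-binding Hrc fell 3.49-fold and the alpha1A adrenoceptor Adra1a 3.13-fold, whereas the sodium-calcium exchanger Slc8a1 (0.1) was not called. Potassium channel, gap junction and desmosome genes fell in 21 of 27 and rose in 1, the connexin Gjc1 (0.38) (median -0.77, against 0 higher, 19 lower and -0.93 in the 5-library set). The potassium channel subunit Kcnv2 fell from 16.1 ± 4.23 CPM in sham to 2.2 ± 1.11 CPM in MI (SD, n = 5), and Kcnip2, which modulates the transient outward channel, fell 3.68-fold. Cardiac transcription factors fell in 18 of 24 and rose in 2 (median -0.63, against 1 higher, 19 lower and -0.76 in the 5-library set), including Ppara (-1.31) and Esrrg (-1.11), regulators of mitochondrial and fatty acid genes. Tbx18, an epicardial factor, rose by 0.99 and Tbx20 by 0.34.

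Of the genes that take up and oxidize fatty acids, 32 of 34 fell and 0 rose (median -1.19, against 0 higher, 31 lower and -1.24 in the 5-library set). Acadm, the medium-chain acyl-CoA dehydrogenase (ENSMUSG00000062908, chromosome 3, 153922357 to 153944632), was 1417, 1233, 1406, 1529.8 and 1545 CPM in sham replicates 1 to 5 and 488, 614, 602, 537 and 699 CPM in MI replicates 1 to 5. The groups were far apart (2.42-fold lower, log2 fold change -1.28, SE 0.12, edgeR adjusted p = 3.85e-06). Ucp3 fell 3.97-fold, the thiolase Acaa2 3.03-fold and the trifunctional protein subunit Hadhb 2.905-fold. All 36 genes of the TCA cycle, pyruvate entry and branched-chain amino acid breakdown fell (median -1.02, against 0 higher, 34 lower and -1.2 in the 5-library set), Bckdha by the most (-1.33).

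Respiratory chain genes fell with smaller medians. Complex I genes fell in 33 of 36 and rose in 0 (median -0.72, against 0 higher, 12 lower and -0.52 in the 5-library set), from -1.16 for Ndufs1 to -0.32 for Ndufb6, which was not called (-0.48 and called without MI replicate 1).  Complexes II to V fell in 30 of 38 and rose in 0 (median -0.68, against 1 higher, 15 lower and -0.57 in the 5-library set). Muscle creatine kinase, Ckm (-1.46), and myoglobin, Mb (-1.08), fell, whereas the brain form Ckb rose by 0.43. Among glycolytic and hypoxia genes 6 of 29 rose and 14 fell (median -0.19, against 3 higher, 12 lower and -0.31 in the 5-library set): the lactate exporter Slc16a3 (2.09) and Car9 (1.44) rose, the muscle glucose transporter Slc2a4 (-1.36) and Ldhb (-1.32) fell, and Ldha (-0.03) was not called. Of genes of the oxidative stress factor NRF2, of metal binding and of heme, 8 of 22 rose (36.4%) and 6 fell (27.3%) (median 0.12, against 7 higher, 3 lower and 0.21 in the 5-library set), against 28.4% and 26.6% of all genes tested. Hmox1, which degrades heme, rose 8.33-fold. It was 14.3, 23.4, 13.8, 13.2 and 12.2 CPM in sham replicates 1 to 5 and 160.0, 70.6, 294, 64.98 and 53.1 CPM in MI replicates 1 to 5, with MI replicate 3 highest and no overlap. Chaperone genes fell in 9 of 20 and rose in 1 (median -0.34, against 1 higher, 5 lower and -0.57 in the 5-library set), and the gene that rose, Serpinh1 (0.93), is the chaperone of collagen. Circadian genes fell in 10 of 18 and rose in 3 (median -0.36, against 0 higher, 4 lower and -0.43 in the 5-library set). The labels do not give the time of day of collection.

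Of 21 endothelial genes 3 rose and 5 fell (median 0.04, against 0 higher, 4 lower and 0.08 in the 5-library set), shares of 14.3% and 23.8% against 28.4% and 26.6% of all genes tested. Pecam1, the pan-endothelial CD31, went from 253 ± 15.7 CPM in sham to 277 ± 21.8 CPM in MI (SD, n = 5) and was not called (log2 fold change 0.13, SE 0.09, edgeR adjusted p = 0.236). Aqp1 (-0.95) and the VEGF receptor Kdr (-0.79) fell, as did Vegfa (-0.73), the ligand of Kdr, while Vwf (0.75) rose. Of 15 angiogenic genes 10 rose and 1 fell (median 0.69, against 6 higher, 1 lower and 0.54 in the 5-library set); among those that rose were the chemokine receptor Cxcr4 (1.93), Unc5b (1.46) and Plvap (1.35), a diaphragm protein of fenestrated vessels. Of 16 pericyte and smooth muscle genes 7 were higher (43.8%) and 4 lower (25%) (median 0.12, against 4 higher, 2 lower and 0.18 in the 5-library set). In the next 3 lists the share of higher genes was near the 28.4% over all genes tested. Of 12 Schwann cell genes 3 were higher (25%), or 1 without MI replicate 4, and 3 lower (25%) (median -0.22, against 1 higher, 1 lower and 0.12 in the 5-library set). Of 12 mesothelial and epicardial genes 4 were higher (33.3%) and 0 lower (median 0.38, against 4 higher, 0 lower and 0.5 in the 5-library set), and of 6 mast cell and eosinophil genes tested 2 were higher (33.3%) and 0 lower (median 0.3, against 3 of 8 higher, 0 lower and 1.14 in the 5-library set). Lymphatic genes rose in 4 of 9 and fell in 1 (median 0.23, against 2 higher, 1 lower and 0.26 in the 5-library set). Platelet and erythroid genes rose in 9 of 10 and fell in 0 (median 1.5, against 7 of 12 higher, 0 lower and 2.3 in the 5-library set), and 5 rose with lung transcripts as a term. The sources used here do not say how much blood each heart still held.

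The infarct effect at day 7 was set against that at day 4 in a model of all 30 libraries, as the difference of the 2 effects, each against its own sham group. Of 15537 genes tested, 109 (0.702%) had a higher effect at day 7 and 49 (0.315%) a lower one (edgeR). The lung-transcript libraries, which include 2 of the 5 day 4 sham libraries, and MI replicate 4 of day 7 were then all left out. Of 15994 genes tested there, 9 were higher and 0 lower. All 109 and all 49 kept their direction, but the libraries left are among the 30 that gave these calls and are no independent replication. At an unadjusted edgeR p under 0.05, with no correction for the number of genes tested, 982 were higher and 820 lower there. The count of higher genes was 71, 171, 70 and 56 without sham replicates 1, 2, 4 and 5 of day 7 and 70, 67 and 180 without MI replicates 2, 4 and 5. That of lower genes was 28, 25 and 17 without sham replicates 1, 4 and 5 and 28, 28 and 114 without MI replicates 2, 4 and 5. Among the 109 were 7 of 18 late scar genes, 6 of 12 small leucine-rich proteoglycans, 5 of 23 matrix proteases or inhibitors and 3 of 21 complement genes, with some genes on more than 1 list. Median effects at days 2, 4 and 7 were 0.08, 1.28 and 2.57 for fibrillar collagens, -0.1, 0.63 and 2.4 for late scar genes and -0.46, -0.18 and 0.65 for small leucine-rich proteoglycans. No fibrillar collagen passed the test of the difference from day 4.

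Among called genes of at least 10 CPM the largest difference was in Col8a2, whose effect was -0.38 at day 2, 1.5 at day 4 and 4.21 at day 7 (difference 2.71, SE 0.33, edgeR adjusted p = 3.55e-05, and 0.0123 without those libraries). Comp went -0.11 at day 2, 0.69 at day 4 and 2.92 at day 7, Sfrp2 0.0 at day 2, 0.88 at day 4 and 3.04 at day 7 and Fmod -0.5 at day 2, 0.22 at day 4 and 2.34 at day 7. The other large rises in effect were in the clock output gene Dbp (difference 2.17), 1500015O10Rik, also known as Ecrg4 (2.17), thrombospondin 2, Thbs2 (1.82), and Abi3bp (1.82). Of these, Dbp was not called between MI and sham at day 7 in the 10 libraries. The 9 genes that passed without those libraries, named after their values were seen, were Col8a2, 1500015O10Rik, Aspn, Fbln5, Fibin, Fxyd6, Itgbl1, Itm2a and Stc2. Of these, Fxyd6, an ion pump regulator, had effects of -0.11 at day 2, 0.22 at day 4 and 1.58 at day 7.

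Effects called lower at day 7 than at day 4 differed by less in the genes of at least 10 CPM. The uridine-cytidine kinase Uck2 had 1.82 at day 2, 1.84 at day 4 and 1.0 at day 7, a difference of -0.84. Phlda1 (-1.06), the glutamate transporter Slc17a7 (-1.12), the RNA-binding Igf2bp2 (-0.86), the chromatin protein Hmga1 (-0.88), whose reads cannot be told apart with certainty from those of its near-copy Hmga1b (-0.85), Slc7a7 (-0.84) and Adam19 (-0.83) were the others named by size. The 2 macrophage lists, the pan-macrophage list, the monocyte list and the cell cycle list held no gene called in either direction; the median effect of the cell cycle list was 2.21 at day 4 and 2.13 at day 7, and that of the inflammatory monocyte list 1.94 and 1.9.

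**Figure D5:**
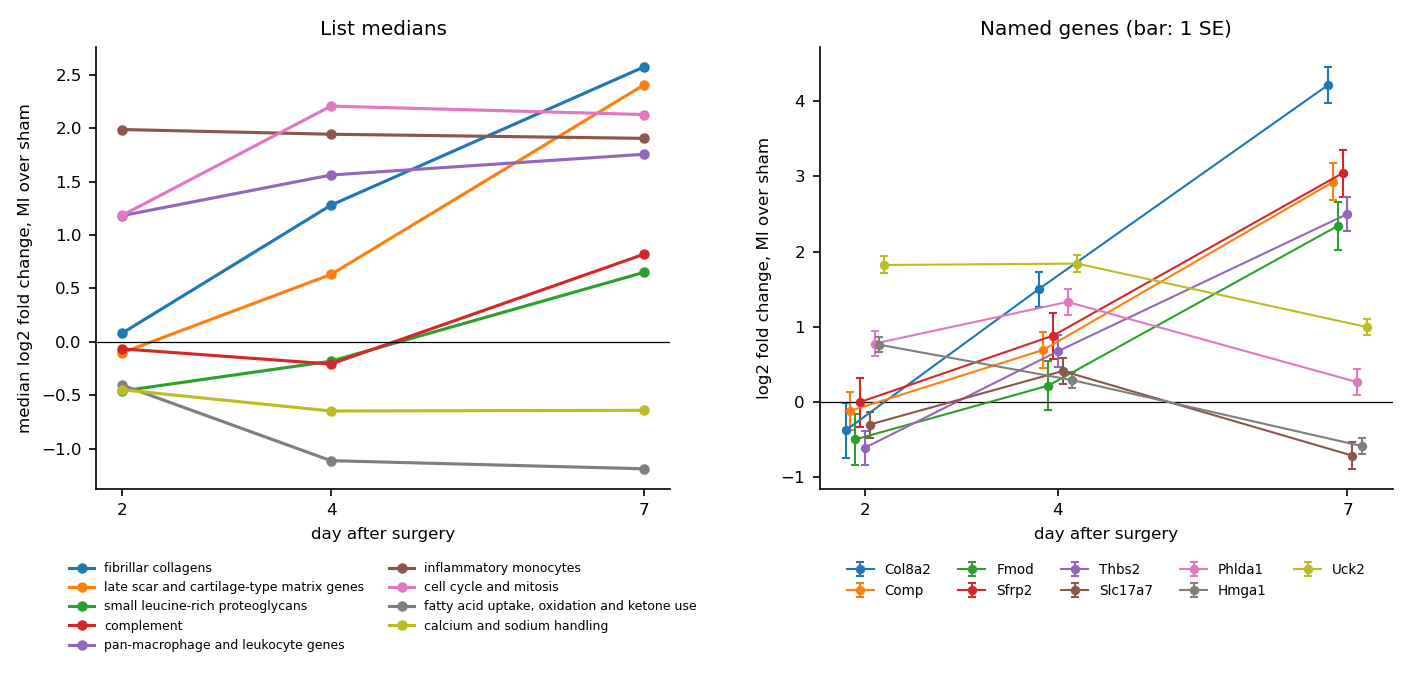
Infarct effect (log2 fold change, MI over sham of the same day) at days 2, 4 and 7 in the model of all 30 libraries, as list medians (left) and for 9 genes with 1 SE (right). Collagen, late scar, proteoglycan and complement medians are highest at day 7, and the fatty acid list reaches -1.11 by day 4 and -1.19 at day 7.

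Against day 2, 1575 of the 15537 genes (10.1%) had a higher effect at day 7 and 1415 (9.11%) a lower one (edgeR). Without the 4 day 7 lung-transcript libraries and MI replicate 4 of day 7, 1108 were higher and 938 lower. Without every lung-transcript library and MI replicate 4 of day 7, 1171 were higher and 1033 lower. Day 2 libraries carry another sequencing label than those of days 4 and 7, so sequencing run and day cannot be told apart in level, although each effect is taken against sham libraries of its own day. Col11a1 had effects of -0.52 at day 2, 3.05 at day 4 and 5.81 at day 7, Postn 1.19 at day 2, 2.17 at day 4 and 3.19 at day 7, Csf1r 0.14 at day 2, 0.85 at day 4 and 1.22 at day 7 and Acadm -0.45 at day 2, -1.31 at day 4 and -1.27 at day 7; all 4 differed between days 7 and 2 (edgeR adjusted p = 0.000815, 0.000684, 0.00369 and 0.000702). Scn4b did not pass, with -2.01 at day 2, -2.19 at day 4 and -2.43 at day 7 (edgeR adjusted p = 0.515), nor did S100a8, with 4.92 at day 2, 3.75 at day 4 and 5.36 at day 7 (edgeR adjusted p = 0.877).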

How the data were processed

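RNA was sequenced as read pairs on an Illumina NovaSeq from libraries made with the NEBNext Ultra II Directional kit, per the labels' protocols. The values are raw counts per gene, which the authors deposited as 1 table per library. Per the submitters' processing notes, bcl2fastq 2.20.0, featureCounts and the GRCm38 build were used. The sources used here name no aligner, annotation release or featureCounts version and do not say whether strand was used in counting, so genes that overlap or have near-copies are uncertain. Of the 43629 gene IDs, 42462 matched a name, and positions come from the GRCm38 annotation by gene ID.

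Genes were filtered with filterByExpr (minimum count 10, minimum total 15), scaled by TMM and tested with the quasi-likelihood test of edgeR 4.0.16 in R 4.3.3, with Benjamini-Hochberg adjustment over all genes tested. A gene was called at an adjusted p under 0.05. A count of 3 corresponded to 0.232 to 0.422 CPM in the day 7 libraries. A library was taken to hold lung transcripts where Sftpc plus Scgb1a1 reached 50 CPM. Effects at days 2, 4 and 7 come from 1 model of all 30 libraries. The script for each test was tested on simulated data. Alternatives were DESeq2 1.42.0, limma 3.58.1 with voom sample weights, median-ratio scaling, other filters, a fold threshold of 1.5, the replicate number as a block, lung transcripts as a term, the 30-library model and leaving out libraries. Library measures were compared by a 2-sided exact permutation test, whose smallest possible p is 0.00794.

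The members, the 60 gene lists and the tests were chosen with earlier results of these data known. Genes were named by rule: a fixed panel, the 10 largest changes in each direction of at least 10 CPM without overlap and also called in the 5-library set, up to 4 called genes of at least 2 CPM per list, and the 8 largest differences from day 4 in each direction of at least 10 CPM. Listed genes that were not called could be given too, and some genes under the rule are not reported here. Outside this rule, the following were chosen after their values were seen: Acadm, Adamts2, Arg1, Axin2, Bmp1, Bmp6, Bmp7, Cacna1h, Canx, Car9, Ccl11, Ccr2, Cd59a, Cilp, Cilp2, Ckb, Col1a2, Col4a1, Col4a2, Csf1r, Ctla4, Cytl1, Dcn, Dkk2, Dnajb9, Fbln5, Fibin, Gaa, Gjc1, Gsn, H2-Aa, Hcn4, Itgb6, Itgbl1, Itm2a, Lck, Loxl1, Lpl, Lrrc15, Matn3, Mmp15, Scara5, Sox9, Stc2, Tbx20, Tgfb1, Tgfbr1, Tgfbr3, Vegfa, Wif1, Wnt4 and Wnt5a.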

Additional observations from a re-analysis of the deposited data

Results flagged for a closer look

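In 12 of 112 groups of 5 libraries tested for an outlying value (genes of the panel, the largest changes and library measures), 1 library stood apart from the other 4, and chance alone marks about 1 in 20 groups. Sham replicate 2 was the high library for 7 genes: Col3a1 at 2404 CPM, Postn at 328, Tnc at 27.4, Spp1 at 27.8, Gpnmb at 21.1, Cd68 at 18.2 and Cemip at 4.15 CPM. The same library held alveolar transcripts and lay nearest to the MI group on the leading principal component, and the part of either in these values was not tested. Sham replicate 5 was the low library for Acta2 at 120.2 CPM. Among MI libraries, replicate 3 was high for Sprr1a at 113 CPM, replicate 4 for Thbs4 at 166 CPM and for Tnnt3 at 534 CPM, and replicate 2 for the summed lung genes at 2623 CPM before TMM scaling.

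The infarct effect differed between days 7 and 4, by the interaction test in edgeR, for 32 genes named here. It was higher at day 7 for 24 of them, by 3.39 for Matn4, 2.71 for Col8a2, 2.23 for Comp, 2.17 for Dbp, 2.17 for 1500015O10Rik, 2.16 for Sfrp2, 2.12 for Fmod, 1.82 for Thbs2, 1.82 for Abi3bp, 1.76 for Fbln5, 1.62 for Itm2a, 1.54 for Itgbl1, 1.52 for Ptn, 1.39 for Sfrp1, 1.35 for Fxyd6, 1.35 for Mmp2, 1.35 for Frzb, 1.27 for Col8a1, 1.25 for Aspn, 1.14 for Fibin, 1.07 for Stc2, 1.06 for Lum, 0.93 for Dcn and 0.87 for Tcf21 on the log2 scale. It was lower for 8: Slc17a7 (-1.12), Phlda1 (-1.06), Hmga1 (-0.88), Igf2bp2 (-0.86), Hmga1b (-0.85), Uck2 (-0.84), Slc7a7 (-0.84) and Adam19 (-0.83). Of these genes, 9 were also called without every lung-transcript library and MI replicate 4 of day 7: 1500015O10Rik, Aspn, Col8a2, Fbln5, Fibin, Fxyd6, Itgbl1, Itm2a and Stc2.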

How the results depend on the processing

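The counts of 4119 higher and 3857 lower genes stayed within 1.5 times under DESeq2, voom with sample weights, median-ratio scaling, other low-count filters, the 30-library model, lung transcripts as a term and leaving out single libraries. Tested against a fold change of 1.5 they were 1784 and 949, and in the 5-library set the lower count was 2208. For the difference between days 7 and 4 (109 higher, 49 lower), no low-count filter gave 53 and 31 and DESeq2 gave 224 and 197. Without the 4 day 7 lung-transcript libraries and MI replicate 4 the counts were 47 and 10, and without every such library 9 and 0. Leaving out single day 7 libraries gave 56 to 180 higher and 17 to 114 lower. The 1575 genes higher and 1415 lower against day 2 became 1108 and 938 without the 4 day 7 lung-transcript libraries and MI replicate 4. Without every lung-transcript library and MI replicate 4 of day 7 they were 1171 and 1033. The causes were not tested. With a replicate block the day 7 counts were 3805 and 3507 and the genes lower against day 4 were 32. Same-numbered MI and sham libraries correlated between -0.22 and 0.197 in their deviations, and 1 of 5 MI and 2 of 5 sham libraries correlated best with their own number, so the numbers were not taken as a pairing. Of 192 named genes called, 182 kept their call without each single library and 10 did not. Ucp1 (-2.85) was 0.063 without the 4 lung-transcript libraries and 0.32 in the 5-library set, where Adipoq (-0.37), Cfd (-0.36) and Cidec (-0.26), none of them called in the 10 libraries, were 0.72, 0.77 and 0.75. Counts of 1 to 5 genes within a list moved by at most 3 genes when a library was left out. With single libraries left out, MI minus sham ran from 954200 to 1891000 in total counts. In sums of CPM before TMM scaling, it ran from -477.3 to 133.9 for the lung genes and from -2000 to -1029 for the skeletal muscle genes. Genes near 0.232 to 0.422 CPM, the level of 3 counts, have imprecise folds.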
